A study of Mus musculus with 139 samples.

Results

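Small nuclear RNAs (snRNAs) were followed in mouse embryonic stem cells that lost EXOSC2, a subunit of the RNA exosome. The genes were chosen from the nuclear sucrose gradient: those annotated as snRNA with a level of 1 or more in 2 or more of its 16 libraries. Levels there are FPKM, fragment numbers scaled to transcript length and library size. This gave 169 genes of the 1380 annotated snRNA genes and of 52885 genes in all. Since gradient levels chose them, gradient values are given as a description, and tests are given for the other tables only. A further 114 snRNA genes reached 1 in a single gradient library, and 1090 were listed at 0 in all 16. Just inside the threshold were Gm25704, with a second-highest library of 1.05, Gm23838 with 1.06 and Rnu1b6 with 1.11. Just outside were Gm23303 with 0.987, Gm22978 with 0.978 and Gm24671 with 0.943.

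All samples came from the line AID-FBEXOSC2, in which EXOSC2 is fused to an auxin-inducible degron, so the 0 h controls carry the degron too. The auxin indole-3-acetic acid (IAA), given at 0.5 mM, triggers loss of the protein. The study asked what depletion of the exosome over time does to these cells. Libraries of total RNA freed of rRNA covered 0, 4 and 20 h of IAA, both for the stem cells (ESCs) and for iMEFs, the attached and mainly fibroblast-like cells obtained after 10 days of 1 µM retinoic acid. At 0 and 4 h, ESCs were also split into a cytoplasmic fraction (cyto), a soluble nucleoplasmic fraction (np) and an insoluble fraction of chromatin with poorly extractable ribonucleoprotein (chrRNP), beside the whole cell lysate (wcl). Nascent RNA was labelled with 5-ethynyl uridine for 10 min at 0, 1, 2 and 4 h. Polyadenylated RNA was measured in the RNPmesh fraction at 0, 4 and 12 h, and over 0, 4 and 20 h in cells that had seen no retinoic acid (RAD0) or had it at 2 µM for 24 h without LIF (RAD1). Each of these groups had 2 libraries. Native nuclear lysates were spread over a 6 to 40% sucrose gradient at 0 and 12 h, with 1 library for each of fractions F2 to F9. The labels do not say which end of the gradient F2 came from. Nothing states that replicate libraries came from separate cultures, so p-values measure the spread between these libraries, which may be technical.

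The labelled material was checked on gene lists that were chosen with earlier results of these data known. In ESC total RNA, all 8 stem cell markers fell by 20 h, where 67.8% of all genes were called lower. Their summed FPKM was 1717 to 1774 at 0 h and 476 to 523 at 20 h. Of 5 trophoblast markers the 4 tested rose, where 9.47% of all genes were called higher. Their sums were 12.3 to 12.7 at 0 h and 76.6 to 77.2 at 20 h, when Elf5 was at 0. The 4 neural markers present also had larger sums, 6.64 to 7.10 at 0 h and 17.6 to 19.1 at 20 h. Sums of 10 fibroblast markers were 87.3 to 97.4 at 0 h and 54.0 to 57.0 at 20 h. Those of 5 endoderm markers were 0.838 to 1.38 and 0.775 to 1.07. The part of these markers in the 20 h results below was not tested. In bulk samples, fewer cells of a type and less RNA per cell cannot be told apart. Of 7 nuclear reference RNAs, 6 were higher in np than in cyto at 0 h, with a median log2 difference of 2.79. Of 6 cytosolic ones 1 was higher and 3 were lower. Summed nuclear references at 0 h were 177631 to 185052 FPKM in np, 87045 to 89110 in cyto and 72891 to 73753 in chrRNP. That sum was thus lower in chrRNP than in cyto. Summed cytosolic references were 3311 to 3682, 5796 to 6177 and 730 to 1579 in the same order. Protein-coding sums of the chrRNP libraries at 0 h were 60681 and 101143. Degradation acts on EXOSC2 protein, so Exosc2 mRNA does not check the labels. It changed by -0.31 (log2) at 4 h (adjusted p = 0.165) and by -1.08 at 20 h (adjusted p = 0.000991). Read depth is unknown in the FPKM tables. In the nascent table every low value was a whole number of reads to within 0.05, which gave 5355811 to 11307565 reads per library.

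The snRNAs are short, stable, non-coding RNAs that form the core of the spliceosome. U1, U2, U4, U5 and U6 serve the major class of introns, while U11, U12, U4atac and U6atac replace their counterparts in the minor spliceosome. Most are made by RNA polymerase II from compact promoters without introns, with an extended precursor that is cut, exported, clad with a ring of Sm proteins in the cytoplasm and brought back to the nucleus. U6 and U6atac are made by RNA polymerase III. The nuclear exosome is known to trim or destroy extended and defective snRNA precursors.

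Only 1 stretch of sequence could be tied to an abundant member, and it is shown because the locus returns in every table. Gm22710 lies within the span of the antisense RNA gene 2900060B14Rik, and the RefSeq start window of that gene, 250 bases before to 50 after its start, runs into it. The window is chr1:118459216-118459515 on GRCm38.p6, minus strand, printed 5′ to 3′. Capitals mark an octamer and the last 50 bases, which are the first 50 annotated bases of Gm22710.
2900060B14Rik window: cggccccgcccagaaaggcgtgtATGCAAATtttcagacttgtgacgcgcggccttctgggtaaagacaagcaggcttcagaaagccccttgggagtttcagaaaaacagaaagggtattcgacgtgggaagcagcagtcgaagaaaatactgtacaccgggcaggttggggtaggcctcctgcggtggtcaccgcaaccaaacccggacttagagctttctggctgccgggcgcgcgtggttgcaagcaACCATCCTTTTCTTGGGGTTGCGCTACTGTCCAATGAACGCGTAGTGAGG
The closing capitals read as the 5′ end of U4atac, so Gm22710 is treated here as a U4atac gene. The octamer ATGCAAAT, the letters bound by octamer factors in the distal elements of many snRNA genes, ended 219 bases before Gm22710. Searched as ATGCAAAT or its reverse complement ATTTGCAT, it occurred in 570 of 32851 RefSeq start windows of 300 bases, or 1.74%.

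A small set of genes carried nearly all of the signal. The 19 genes with a mean of at least 20 FPKM over the 16 gradient libraries, a limit chosen after the levels were seen, held 99.3% of the summed level of the 169, and the top 5 held 73.1%. The lowest of the 19, Gm25380, averaged 36.8 FPKM, and the next gene 19.0. The other 150 genes had a median of 0.701. All 17 genes that reached 1 FPKM in every gradient library were among the 19. Most snRNA genes of the mouse genome are near-identical copies or pseudogenes, between which the counting may have split reads, so the value of any single copy is uncertain.

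The leading gene was Gm25541 (chr2:27539805-27539930 on mm10, 126 bases), with a mean of 5160 FPKM. Next were Gm25360 (chr1:72226240-72226430, 191 bases) with 4435, Gm22513 (chr12:54696782-54696945, 164 bases) with 4352 and Rnu12 (chr15:83149644-83149794, 151 bases), the U12 gene, with 3329. Gm22710 (chr1:118459141-118459265, 125 bases) followed with 2474, and Rnu11 (chr4:132270080-132270213, 134 bases), the U11 gene, was the tenth with 368. Only Rnu symbols and the sequence above named a family. Of the rest, Gm25360, Gm25939, Gm22973, Gm25813 and Gm26316 share the annotated length of 191 bases with Rnu2-10, Gm22513 and Gm24305 that of 164 bases with Rnu1a1, and Gm23143, Gm25099, Gm24871, Gm22265 and Gm23287 that of 116 bases with Rnu5g. Length alone names no family, and it was compared after the levels were seen. Rnu1a1, Rnu2-10, Rnu5g, Rnu6 and Rnu7 themselves were listed at 0 in all 16 gradient libraries. The 41 members of 107 bases, the length of Rnu6 and of 406 snRNA genes, included a single one of the 19, Gm25380.

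The abundant genes also stood apart from other snRNA genes in chromatin. H3K27ac, an acetylated histone found at active promoters and enhancers, was given as 16239 peaks at 0 h covering 20.0 Mb and 20449 peaks at 4 h covering 26.4 Mb, as the authors called them. At 0 h, 17 of the 19 abundant genes (89.5%) lay in a peak, all but Gm25813 and Gm25380. The other 150 members had 6 in a peak (4.00%), and the 1211 snRNA genes outside the set had 24 (1.98%). At 4 h the counts were 17 of 19, 8 of 150 (5.33%) and 27 of 1211 (2.23%). All 23 members in a peak at 0 h were in one at 4 h, and 2 more joined them. Levels chose the set, so these shares are given as counts with no test. The share in a peak was not computed for all genes or for other genes of like level. Among the 6 lower members in a peak were the U1 genes Rnu1b1, Rnu1b2 and Rnu1b6, all on chromosome 3. Of the 150 lower members 92 overlapped a protein-coding gene, against 2 of the 19. Counting genes of any type, 96 of the 150 and 6 of the 19 overlapped another gene. Whether a peak belongs to the overlapping gene was not tested.

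**Figure D1:**
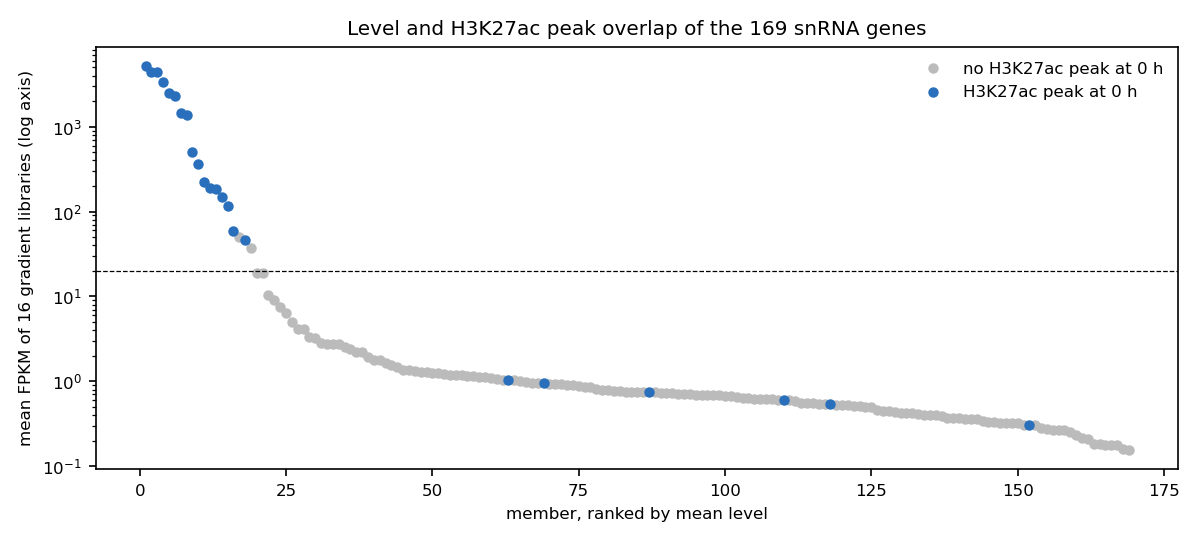
Mean FPKM over the 16 gradient libraries (log axis) of the 169 snRNA genes, ranked from the highest; blue points lie in an H3K27ac peak at 0 h, grey points do not, and the dashed line is at 20 FPKM. Above the line 17 of 19 genes are blue, and below it 6 of 150.

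In the sucrose gradient at 0 h, the abundant snRNAs were highest in the lowest-numbered fractions. Gm25541 had 13443 FPKM in F2, 6682 in F3, 2812 in F4 and 1311 in F5, and 722 to 1165 in F6 to F9. Gm22513 ran from 5968 in F2 to 7755 in F3, 6851 in F4 and 3628 in F5, and lay between 677 and 1621 from F6 on. Rnu12 was spread more evenly, from 3705 in F2 to a lowest value of 1782 in F6 and 2421 in F9. Of the 19, 13 peaked in F2, 5 in F3 and 1, Gm24871, in F6. Between 41.7% (Gm24871) and 93.7% (Gm25380) of a gene's summed level lay in F2 to F5.

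Over all members, 28 of 169 were at least 2-fold higher in the mean of F6 to F9 than in that of F2 to F5, and 40 at least 2-fold lower. Of all 15214 genes at this level, 2.79% were higher and 30.4% lower. None of the 19 was higher and 12 were lower. These directions follow the scale of the libraries: the summed level of protein-coding genes fell from 231937 in F3 to 47975 in F9 at 0 h, and with these sums made equal 65 members were higher and 16 lower (5 and 3 of the 19). Rescaling to a common median ratio gave 47 and 26 (1 and 5 of the 19).

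After 12 h of IAA, 17 of the 19 abundant snRNAs had a larger sum over the 8 fractions. The exceptions were Gm22973 at -0.16 and Gm25813 at -0.05 on the log2 scale. The median of the 19 was 0.61, against -0.13 over all genes, and with equal protein-coding sums 17 were again larger, with a median of 0.46. The U4atac gene Gm22710 differed most, by 2.79-fold. At 0 h its levels from F2 to F9 were 1895, 3866, 1560, 939, 485, 619, 424 and 654 FPKM, and at 12 h 2653, 12536, 7394, 3621, 1194, 643, 547 and 552. It was higher at 12 h in F2 to F8 and lower in F9. With 1 library per fraction and time, no error can be given for these differences.

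The U12 and U11 genes had larger sums too. Rnu12 went from 3705, 2943, 2640, 2039, 1782, 2252, 1827 and 2421 FPKM in F2 to F9 at 0 h to 6301, 7077, 5568, 3691, 2806, 2579, 2525 and 3105 at 12 h, a log2 difference of the sums of 0.78. It was higher in each of the 8 fractions. Rnu11 went from 476, 241, 257, 216, 208, 242, 140 and 203 to 1241, 733, 509, 331, 287, 314, 202 and 291, a difference of 0.98, and was also higher in all 8. By contrast, the sum of Gm25360 differed by 0.14, with 10456 FPKM in F2 at 0 h and 8869 at 12 h. Gm25541 reached 15360, 18640, 10113 and 5769 in F2 to F5 at 12 h, and its sum differed by 0.98. Gm22513 reached 6904, 8936, 10797 and 7885 there, with a difference of 0.55.

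With values as deposited, the gain lay in the middle of the low-numbered fractions. The ratio of the members' summed level at 12 h to that at 0 h was 1.09 in F2, 1.83 in F3, 2.24 in F4, 2.17 in F5 and 1.62 in F6, and 0.929 to 0.953 in F7 to F9. Over all fractions it was 1.51, against 0.935 for protein-coding genes. Protein-coding sums changed unevenly, from 198503 to 129065 in F2 and from 127907 to 160557 in F6, so the ratios of single fractions rest on the scale. Other short non-coding RNAs had larger sums too, by 0.80 (log2) for Rn7sk, the 7SK RNA, by 0.55 for Rpph1, the RNase P RNA, and by 0.35 for Rmrp, the RNase MRP RNA. Rn7sk went from 53189 to 96632 FPKM in F3, from 22052 to 60552 in F4 and from 7788 to 27712 in F5. The share of a gene's level in F3 to F5 was larger at 12 h for 18 of the 19, the exception being Gm25380. The number of genes that peaked in F2 went from 13 to 8, and that in F3 from 5 to 9. Neither the share nor the peak fraction was computed for all genes or with rescaled libraries. Whether they are particular to snRNAs was not tested.

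Over all 169 members, 35 had at least a 2-fold larger and 32 at least a 2-fold smaller sum at 12 h, where all genes gave 8.98% larger and 3.09% smaller. Low levels of single copies make up most of both counts: 33 and 32 of them were among the 150 lower members. With equal protein-coding sums the counts were 37 and 43, so the direction of the total turned. A mean fraction number, weighted by FPKM, could be computed for the 34 members with summed FPKM of at least 16 at both times. At 12 h, 6 of these lay at least 0.5 fraction higher and 10 at least 0.5 lower. Among the 9605 genes so measured, 37.6% lay higher and 0.843% lower. That share of higher genes rests on the scale: with equal protein-coding sums 491 of 10134 genes lay higher and 335 lower, and 4 and 24 of 37 members. Rescaled by the median ratio, 520 of 9966 genes lay higher and 404 lower, and 3 and 21 of 35 members. Among the 19 none lay higher by this much under any of the 3 scales, and 15 and 14 lay lower with the rescaled sums. As deposited, Rnu11 (-0.65), Gm23143 (-0.58), Gm25099 (-0.76), Gm24871 (-1.47), Gm22265 (-0.64) and Gm23287 (-0.62) lay lower. The last 5 named are the abundant genes of 116 bases. Without F9 the counts over the members were 6 and 5.

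**Figure D2:**
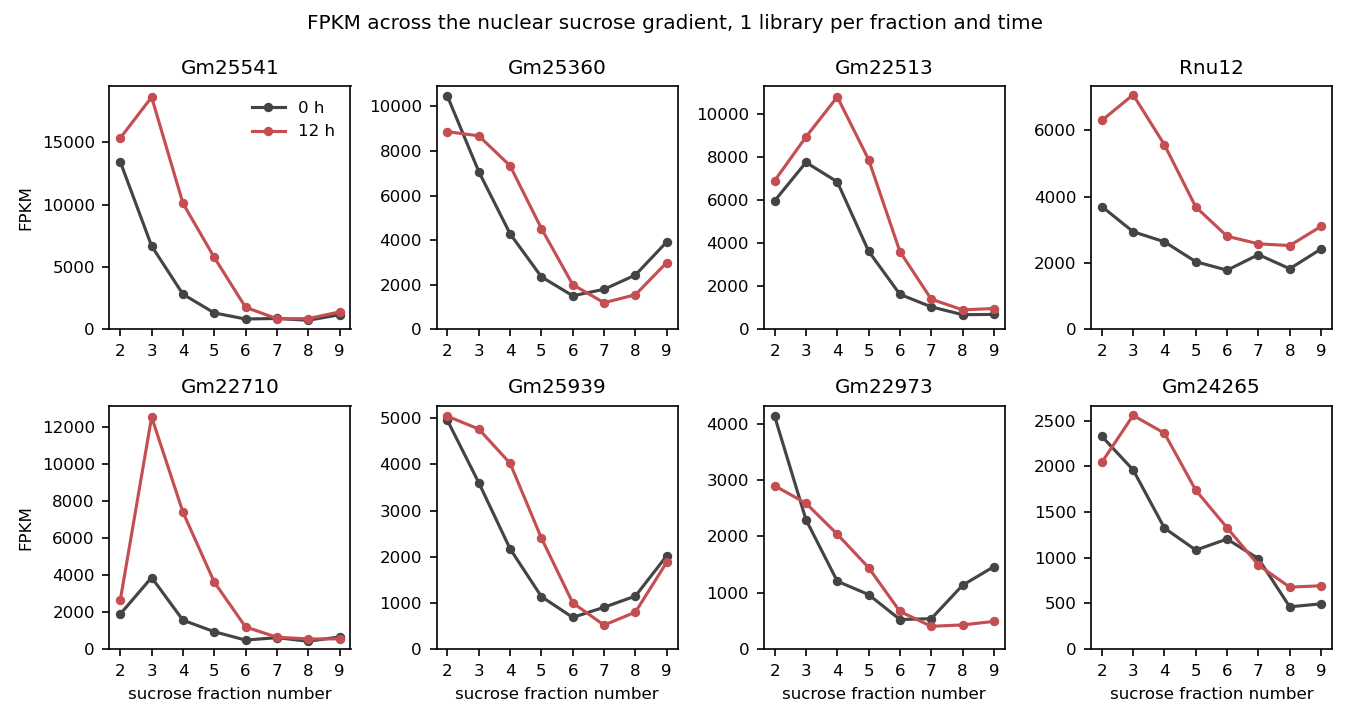
FPKM (linear axes, each from 0) against sucrose fraction number for the 8 snRNA genes of highest mean level, at 0 h (grey) and 12 h of IAA (red), with 1 library per point. Gm22710 peaks in F3 at 3866 and at 12536 FPKM, and Rnu12 is higher at 12 h in every fraction.

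In the cell fractions at 0 h, abundant snRNAs were higher in soluble nucleoplasm than in cytoplasm. The 2 np libraries had summed member levels of 46960 and 40003 FPKM, or 7.45% and 6.02% of all FPKM, and the cyto libraries 12981 and 9475, or 2.03% and 1.50%. Of the 42 members tested, 19 were higher in np than in cyto and none was lower, with limma on log2(FPKM + 1) and Benjamini-Hochberg adjustment over 14069 genes. All genes gave 28.0% higher and 33.8% lower. Of the 19 calls 16 were abundant genes, and 14 held when any library was left out.

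Gm24407 had 2873 and 2848 FPKM in np against 490 and 212 in cyto, a log2 difference of 3.14 (SE 0.34, adjusted p = 1.5e-05). Gm25360 had 8823 and 7656 in np against 2432 and 1999 in cyto. Gm22513 had 5748 and 4817 against 1012 and 746. In all 3 genes the groups were far apart. The U12 gene Rnu12 had 612 and 496 FPKM in np and 110 and 151 in cyto, a log2 difference of 2.09 (adjusted p = 6.7e-05). Gm22710 had 167 and 159 in np and 2.62 and 3.28e-05 in cyto, a difference of 6.43 (SE 1.81, adjusted p = 0.01, up to 0.0656 under the alternatives). Among low members the largest differences were Gm22220, at 6.53 and 9.83 in np, and Gm23458, at 3.94 and 17.2, both listed at 0 in cyto.

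Against cytoplasm, the insoluble chrRNP fraction also held more of these RNAs, with 11 members higher and none lower, where all genes gave 14.3% higher and 63.4% lower. Rnu12 had 777 and 539 FPKM in chrRNP, and its log2 difference from cyto of 2.32 (SE 0.27, adjusted p = 1.35e-05) was the largest of the 11. Gm22513, with 3835 and 3214 in chrRNP, followed with 2.01 (adjusted p = 2.28e-05), then Gm24407 (1139 and 985) with 1.71 and Gm24871 (1100 and 1042, against 719 and 151 in cyto) with 1.70. Libraries without overlap between the fractions were a condition for naming these 4 genes here, so the lack of overlap adds no support. After the libraries were rescaled by their median ratio, 17 members were higher.

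Set against np instead, chrRNP held fewer: 11 members were lower and none higher, where all genes gave 4.99% higher and 74.6% lower, so the members' share of lower calls was under that of all genes. The largest differences were Gm25380 at -6.83 (0 and 0 FPKM in chrRNP, 65.5 and 194 in np, adjusted p = 0.0222), Gm22710 at -4.23 (73.5 and 0.02 in chrRNP, adjusted p = 0.0496), Gm23458 at -3.24 and Gm22220 at -3.17, the latter pair both listed at 0 in chrRNP. This comparison rests on the scale: rescaled libraries gave 2 higher and 2 lower, and 4 of the 11 calls held when any library was left out. Gm25360 had 6435 and 5434 FPKM in chrRNP, below both np values and without passing the test.

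**Figure D3:**
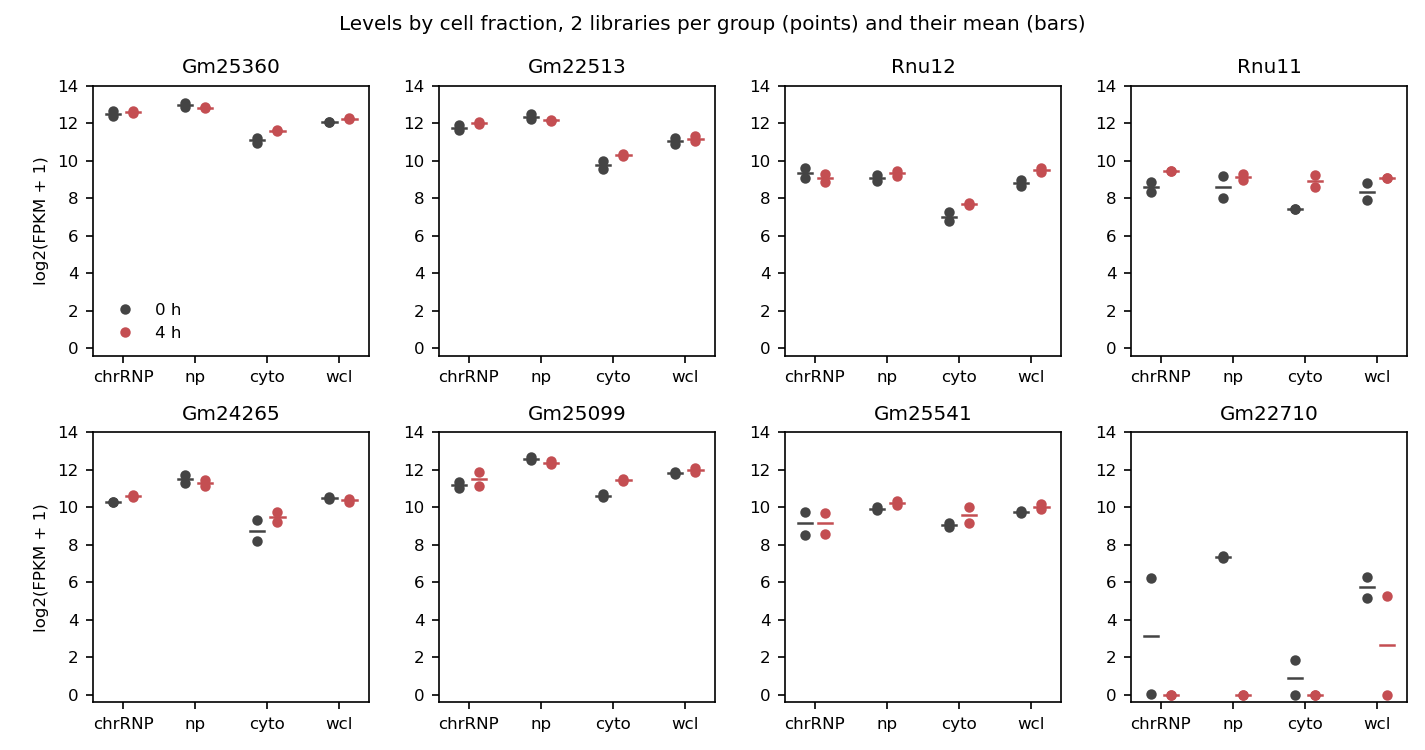
log2(FPKM + 1) of 8 snRNA genes in chrRNP, np, cyto and whole lysate at 0 h (grey) and 4 h of IAA (red); points are the 2 libraries of a group and bars their mean. Each of the genes but Gm25541 and Gm22710 is above its cyto level in both np libraries and both chrRNP libraries at 0 h, and Gm22710 is close to 0 in both np libraries at 4 h.

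After 4 h of IAA, few snRNAs passed the test for a change in any fraction. In chrRNP no member passed the test (limma), where 8.82% of all genes did, and 1 had an unadjusted p under 0.05. In cyto again none passed, where 6.45% of all genes did, although 17 of the 19 abundant genes had a higher mean at 4 h, with a median log2 change of 0.53 against 0.04 over all genes. An unadjusted p under 0.05 was found for 7 members there. For the unadjusted counts in chrRNP and cyto, the share of all genes was not computed, so they cannot be judged. Rnu11 came closest, with 175 and 175 FPKM in cyto at 0 h and 608 and 393 at 4 h (log2 difference 1.48, SE 0.40, adjusted p = 0.0564). The U12 gene had 110 and 151 at 0 h and 212 and 199 at 4 h, a change of 0.67 (adjusted p = 0.223). In both genes the libraries of the times did not overlap.

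In np, 3 of the 42 members fell and none rose, where 30.8% of all genes were called. Gm22710 went from 167 and 159 FPKM to 0.000451 and 2.55e-05 (log2 change -7.36, SE 1.81, adjusted p = 0.0118). Leaving out any of the 4 np libraries ended that call, with an adjusted p of up to 0.059. Gm22220, which overlaps 1700104L18Rik, went from 6.53 and 9.83 to 0 and 0 (log2 change -3.17, adjusted p = 0.00221), a call that no omission ended. Gm26110, which overlaps Fcgr4, went from 3.78 and 5.48 to 0 and 0 (-2.48, adjusted p = 0.0498), a call lost without any of the 4 libraries. In the whole lysate, where 19.2% of all genes were called, Gm22220 was the only member called, from 0 and 0 to 13.8 and 5.54 (3.30, adjusted p = 0.00329). An exact 0 can be a failed estimate, and log2 changes between FPKM + 1 at such levels depend on the added 1, so they are not folds of FPKM.

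The difference between fractions in the IAA change was tested as well. Between chrRNP and cyto no member passed the test, where 0.135% of all genes did, and between np and cyto none did, where 1.00% of all genes did. At an unadjusted p under 0.05 there were 1 and 6 members, and the share of all genes at that threshold was not computed. The change of Gm22710 in np minus that in cyto was -6.43 (SE 2.56, adjusted p = 0.183).

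In ESC total RNA, 21 members could be tested and 148 stayed below the filter of 1 FPKM in 2 libraries. The summed level of members was 8815 and 7895 FPKM at 0 h, 7139 and 7445 at 4 h, and 6866 and 7376 at 20 h. At 4 h, 2 members fell and none rose, where 25.6% of all genes were called. Gm24407, of 141 bases, had 1020 and 864 FPKM at 0 h, 502 and 280 at 4 h and 277 and 277 at 20 h. Its log2 change was -1.32 at 4 h (SE 0.27, adjusted p = 0.0265, 0.169 with rescaled libraries) and -1.76 at 20 h (adjusted p = 0.0012, 0.0975 rescaled). Leaving out either 0 h library ended the 4 h call and no omission ended the one at 20 h. The other was Gm25184, a low copy inside Tpd52l2, with 5.10 and 6.94 at 0 h and listed at 0 in the other 4 libraries. It passed the filter only through its 0 h libraries, so a fall was the only call open to it at 4 h and at 20 h. With either 0 h library left out it could not be tested.

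By 20 h, 2 members had risen and 6 had fallen, where all genes gave 9.47% higher and 67.8% lower and a median log2 change of -0.76. The 6 include Gm25184, which passed the filter only through its 0 h libraries. With libraries rescaled by their median ratio, 8 members were higher and 1 lower, so the balance of the members turned with the scale. Rnu12 had 83.9 and 175 FPKM at 0 h, 121 and 132 at 4 h and 282 and 322 at 20 h. Its log2 change of 1.31 (SE 0.32, adjusted p = 0.0087) held when any library was left out and under each other setting, with adjusted p of up to 0.0438. Gm22513 had 1006 and 1054 at 0 h, 998 and 1178 at 4 h and 1384 and 1645 at 20 h, a change of 0.55 (SE 0.17, adjusted p = 0.0216), whose call was lost without either 0 h library or 20 h replicate 2 (adjusted p of up to 0.129). Both genes were above their 0 h and 4 h libraries at 20 h.

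The falls at 20 h took in several length groups. Gm25099, of 116 bases, had 491 and 357 FPKM at 0 h, 394 and 208 at 4 h and 131 and 126 at 20 h (log2 difference -1.69, SE 0.31, adjusted p = 0.0024, 0.148 rescaled). Gm24265, of 141 bases, had 1128 and 914 at 0 h, 504 and 702 at 4 h and 681 and 426 at 20 h, a change of -0.91 (adjusted p = 0.0208). Both genes had their 20 h libraries below those at 0 h. Of the copies of 191 bases, Gm26316 went from 348 and 287 at 0 h over 299 and 368 at 4 h to 228 and 187 at 20 h (-0.61, adjusted p = 0.0194). Gm22973 went from 734 and 654 over 726 and 653 to 462 and 567 (-0.44, adjusted p = 0.047). Rescaling turned the log2 change of Gm24265 to 0.05, of Gm26316 to 0.35 and of Gm22973 to 0.52, all above 0 (adjusted p = 0.878, 0.0386 and 0.048). Without 0 h replicate 1 the calls of all 3 were lost, as were those of Gm24265 and Gm26316 without 20 h replicate 2 and that of Gm22973 without 0 h replicate 2 or 20 h replicate 1 (adjusted p of up to 0.27). The more abundant Gm25360 of the same length did not pass the test, with 1908 and 1833 at 0 h and 1776 and 1555 at 20 h.

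Read between 4 and 20 h, 3 members rose and 3 fell, where 56.4% of all genes were called. With rescaled libraries 5 rose and none fell. The rises were Gm25541 (57.6 and 121 to 185 and 279 FPKM, log2 change 1.43, adjusted p = 0.0224), Rnu12 (1.25) and Gm22513 (0.48). The falls were Gm24305 (113 and 209 to 65.9 and 70.7, -1.16), Gm25099 (-1.15) and Gm26316 (-0.68). Leaving out libraries kept 1 of these 6 calls throughout. Gm22710 had at most 0.00198 FPKM in the 6 ESC total libraries, although it was among the 5 highest in the gradient.

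In iMEFs, 19 members were tested and a single one passed the test. That does not show the others to be unchanged. Log2 changes of abundant genes ran from -4.70 to 4.50 at 4 h and from -3.45 to 1.93 at 20 h. At 0 h the summed FPKM of 10 fibroblast markers was 2331 to 2333 and that of the stem cell markers 6.00 to 6.25. Sums of the other lists were 61.5 to 67.0 for endoderm, 40.1 to 45.0 for trophoblast and 31.2 to 34.9 for neural markers. These 3 sums were above those of ESC total RNA at 0 h. The U11 gene Rnu11 had 17.6 and 35.0 FPKM at 0 h, 104 and 176 at 4 h and 115 and 82.2 at 20 h. It rose by 2.40 on the log2 scale at 4 h (SE 0.37, adjusted p = 0.0375), where 1.63% of all genes were called, and by 1.93 at 20 h (adjusted p = 0.0138), where 27.4% were. All 4 treated libraries were above both controls. The 4 h call was lost without 0 h replicate 1 or 4 h replicate 2, the 20 h call without either 20 h library, and both without the filter on low values, with adjusted p of up to 0.147 and 0.0709. Rnu11 overlaps the non-coding gene Gm28872, with which it may share reads. Member sums were 6398 and 12147 FPKM in the 2 libraries at 20 h, the widest gap of any iMEF group, and 7398 to 8295 in the others.

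**Figure D4:**
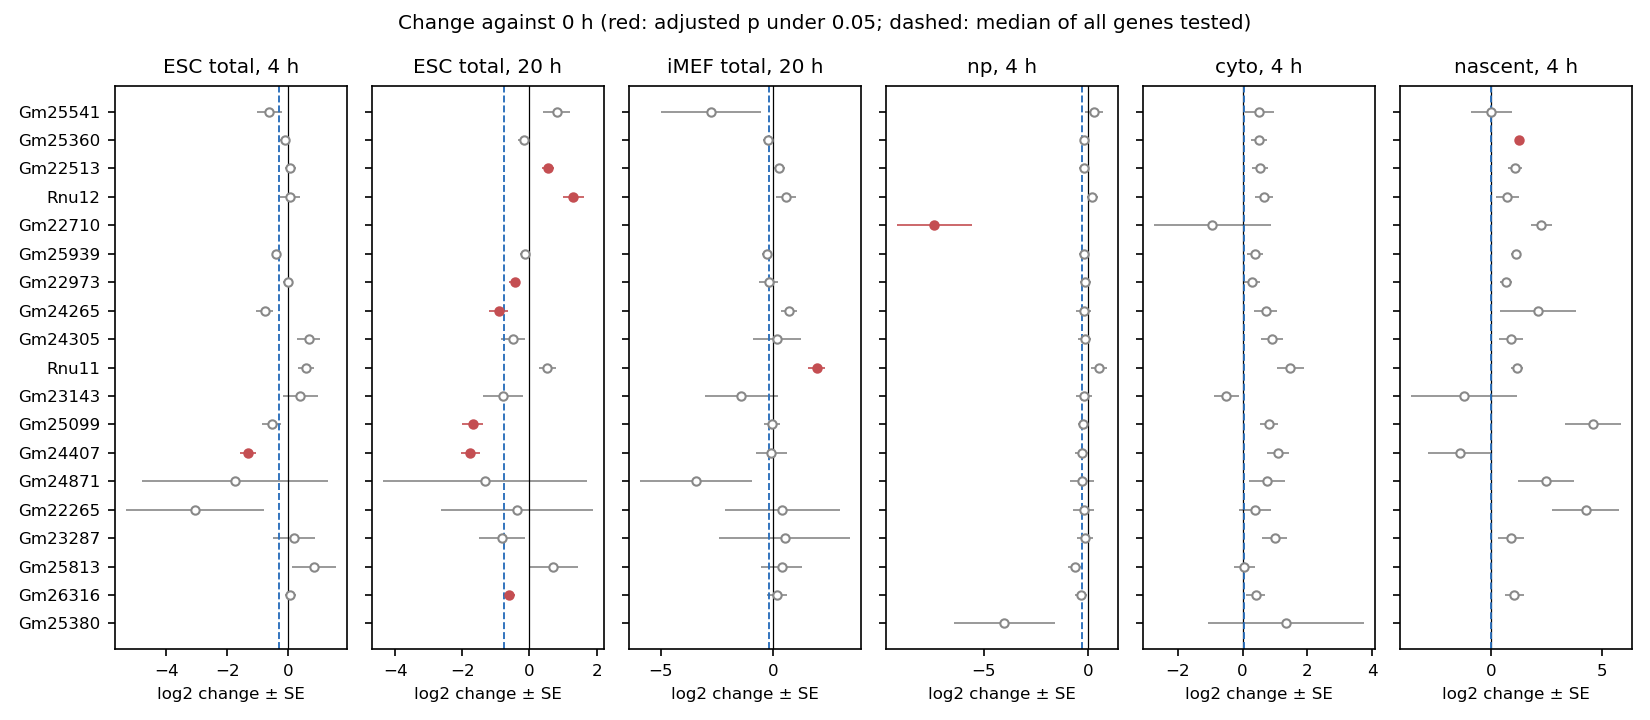
log2 change against 0 h with its standard error from the fit for the 19 abundant snRNA genes in 6 comparisons; red points have an adjusted p under 0.05, open grey points do not, and the dashed line is the median of all genes tested. At 20 h in ESC total RNA Rnu12 and Gm22513 are red on the right and 5 genes are red on the left, and in cyto and nascent RNA most points lie right of 0 without passing the test.

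In nascent RNA the summed level of the members was higher in both 4 h libraries than in both at 0 h, and few single genes passed the test. Values there are RPKM, read numbers scaled to gene span and library size. Member sums were 1784 and 1895 RPKM at 0 h, 1796 and 1890 at 1 h, 2695 and 2532 at 2 h and 3193 and 3629 at 4 h, or 1.51% and 1.47% of all RPKM at 0 h and 2.26% and 2.57% at 4 h. Of 17 abundant genes tested, 14 had a higher mean at 4 h, with a median log2 change of 1.07 against -0.03 over all genes. Of the 50 members tested, 1 rose and 1 fell, where 1.90% of all genes were called. An unadjusted p under 0.05 was found for 13 members, and the share of all genes at that threshold was not computed.

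The rise was that of Gm25360. It had 195 and 221 RPKM at 0 h, 239 and 202 at 1 h, 343 and 312 at 2 h and 433 and 560 at 4 h, from 404 and 225 reads at 0 h and 660 and 754 at 4 h. Its log2 change was 1.24 (SE 0.18, adjusted p = 0.0435), and leaving out any of the 4 libraries ended the call, with an adjusted p of up to 0.148. Its 4 h and 2 h libraries were all above those of 0 and 1 h. Rnu11 had 171 and 163 at 0 h, 148 and 261 at 1 h, 279 and 269 at 2 h and 379 and 370 at 4 h, a change of 1.16 (adjusted p = 0.117). On the whole reads, with voom in limma, an analysis added after the data were seen, 3 members rose and none fell, where 7.35% of all genes were called. These were Gm25360 (adjusted p = 0.0018), Rnu11 (adjusted p = 0.0406) and Gm23971 (adjusted p = 0.0309), a gene of 191 bases with 133 and 157 RPKM at 0 h and 278 and 310 at 4 h. In each library at least 95.0% of the read numbers were even, so mates of a pair were mostly counted apart and the number of fragments is lower. The fall, Gm22738, went from 8.82 and 17.9 RPKM at 0 h to 0 and 0 at 4 h, and voom did not call it (adjusted p = 0.213).

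Some members had levels in nascent RNA and were listed at 0 in total RNA. Nascent RPKM came from reads over gene spans, while Cufflinks was named for the FPKM tables. The kind of RNA and the way of counting therefore cannot be told apart. Rnu1a1, Rnu2-10 and Rnu5g, listed at 0 in all 16 gradient libraries, also passed the filter in nascent RNA. The U1 genes Rnu1b1, Rnu1b2 and Rnu1b6 had 102 to 216 RPKM in all 8 nascent libraries. In ESC and iMEF total RNA all 3 were listed at 0 in every library, and among the fraction libraries the single value above 0 was 3.24 FPKM for Rnu1b6 in np. Rnu1b1 had 102 and 118 at 0 h and 147 and 190 at 4 h, a log2 change of 0.60 (adjusted p = 0.217). At the other end, Gm25541 had the highest mean in the gradient and was listed at 0 in both nascent libraries at 0 h and at 4 h. Rnu6-ps2, a U6 pseudogene, was listed at 0 in all nascent, ESC, iMEF and polyadenylated libraries of RAD0 and RAD1, and reached 29.1 and 30.5 FPKM in 1 chrRNP and 1 cyto library at 4 h.

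The U4atac locus was read through 2 overlapping annotations, and they moved differently. In ESC total RNA, 2900060B14Rik had 2.93 and 1.91 FPKM at 0 h, 16.1 and 18.5 at 4 h and 7.39 and 5.96 at 20 h. Its log2 change was 2.43 at 4 h (adjusted p = 0.00227) and 1.17 at 20 h (adjusted p = 0.0012), while Gm22710 had at most 0.00198 FPKM. At 4 h 2900060B14Rik rose in all 4 cell fractions. In np, where Gm22710 fell, it rose by 2.27 (adjusted p = 0.00254). It rose by 2.39 in chrRNP (adjusted p = 0.00393), by 2.43 in cyto (adjusted p = 0.00467) and by 2.07 in wcl (adjusted p = 0.00714). In iMEFs it rose by 0.91 at 20 h (adjusted p = 0.0238). In the gradient it had 566 FPKM in F2 and 14.6 in F3 at 0 h, and 553 and 147 at 12 h. Both genes carry the same stretch of RNA where they overlap, so FPKM may be assigned to either, and how much was not tested. In nascent RNA, where reads were counted over spans, Gm22710 had 13.3 and 33.1 RPKM at 0 h, 16.9 and 11.6 at 1 h, 24.2 and 16.1 at 2 h and 131 and 84.2 at 4 h. These came from 18 and 22 reads at 0 h and 130 and 74 at 4 h. The log2 change of 2.26 (SE 0.49) did not pass the test (adjusted p = 0.102), and voom gave an adjusted p of 0.119. The whole span of 2900060B14Rik, which takes in Gm22710, had 30 and 38 reads at 0 h and 136 and 88 at 4 h. The gene for the microtubule-binding protein Clasp1 also spans this locus.

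**Figure D5:**
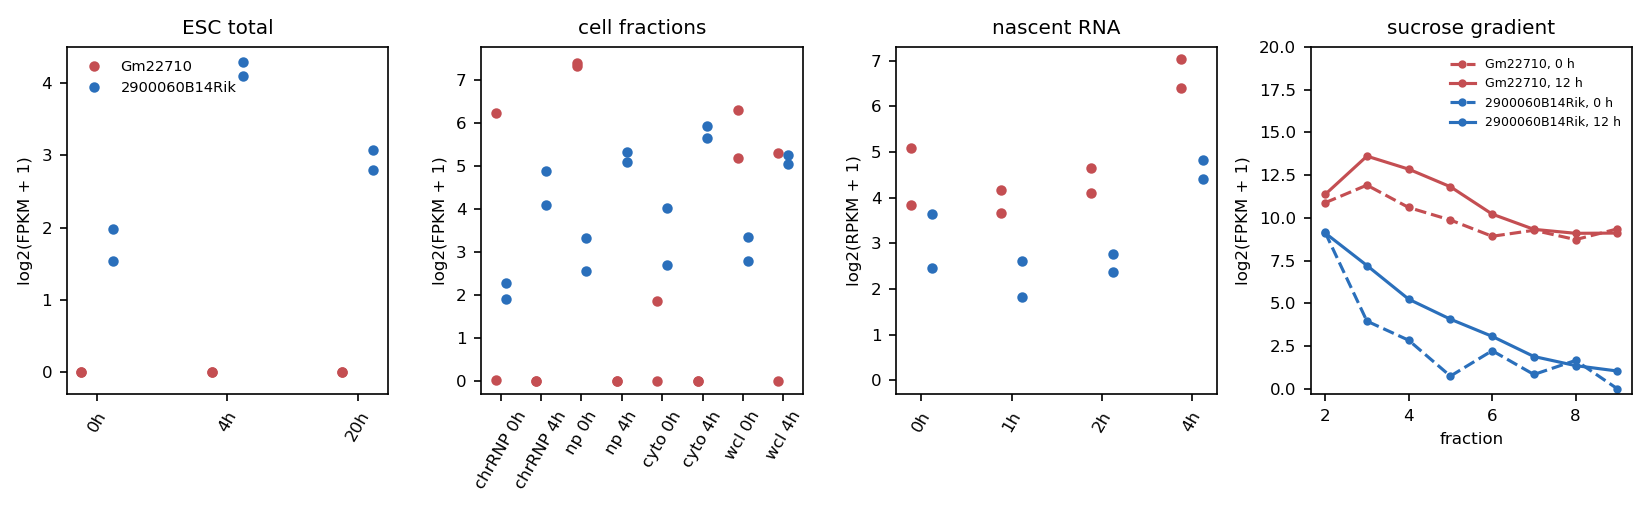
Gm22710 (red) and the overlapping 2900060B14Rik (blue) as log2(FPKM + 1) in ESC total RNA, cell fractions and the sucrose gradient, and as log2(RPKM + 1) in nascent RNA; points are single libraries. In ESC total RNA Gm22710 stays close to 0, at no more than 0.00198 FPKM, in all 6 libraries while 2900060B14Rik is highest at 4 h, and both are highest at 4 h in nascent RNA.

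Polyadenylated RNA held little of the set. In RNPmesh RNA 165 of the 169 members were listed at 0 in all 6 libraries, and the 1 member tested, Gm26316, did not pass at 4 h, where 24.6% of all genes were called, or at 12 h, where 48.0% were. At 12 h it had an unadjusted p under 0.05. In RAD0, member sums were 248 and 242 FPKM at 0 h, 274 and 154 at 4 h and 356 and 240 at 20 h, at most 0.115% of all FPKM. Of 39 members tested, 1 rose and 1 fell at 4 h, where 18.8% of all genes were called, and 4 rose and 2 fell at 20 h, where 51.4% were. Mature snRNAs carry no poly(A) tail.

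Gm25099 rose at both times in RAD0, from 0 and 0 FPKM to 5.19 and 5.27 at 4 h (adjusted p = 0.034, lost without any of the 4 libraries, up to 0.121) and 16.4 and 20.2 at 20 h (adjusted p = 0.00104). Gm23143, another gene of 116 bases, went from 11.1 and 8.57 to 0 and 0 at 4 h (adjusted p = 0.0012). Rnu12 fell at 20 h, from 18.1 and 13.5 to 4.50 and 6.12 (log2 change -1.41, SE 0.39, adjusted p = 0.015, 0.0827 without a library). Rnu11 rose at 20 h, from 6.67 and 10.3 to 70.6 and 17.8 (1.98, adjusted p = 0.0371). Gm22265 and Gm22107 also rose and Gm25541 fell (adjusted p of 0.022, 0.00969 and 0.0467). Of the 6 calls at 20 h, 2 held when any library was left out, those of Gm25099 and Gm22107.

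Genes for the proteins that make, clad and carry snRNAs were read from 9 lists of 73 genes. These lists were chosen with earlier results of these data known. In ESC total RNA 72 were tested: 1 rose and 16 fell at 4 h, where 25.6% of all genes were called, and 1 rose and 68 fell at 20 h, where 9.47% of all genes were higher and 67.8% lower. Their median at 20 h was -1.27, against -0.76 over all genes, and with rescaled libraries 6 rose and 39 fell. All 8 genes of the Sm ring fell at 20 h, with a median of -1.63; Snrpd2, a core Sm protein, fell by 2.05 on the log2 scale. Snrpa1, a U2 particle protein, fell by 2.70. In the 4 h fractions, 2 of 72 rose and 21 fell in np, where 30.8% of all genes were called, so the lists held about the share of all genes. In chrRNP 3 rose and none fell (8.82% of all genes called), in cyto 1 rose and 1 fell (6.45%), and in wcl 1 rose and 12 fell (19.2%). Tut1, which adds uridines to U6, changed by -0.996 in np, and Snapc3, a subunit of the complex that binds snRNA promoters, by 0.98 in chrRNP. None of the 62 tested in nascent RNA passed.

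The member of these lists that rose in ESC total RNA was Rnpc3, which links the U11 and U12 RNAs in the minor spliceosome. It had 7.50 and 8.16 FPKM at 0 h, 10.9 and 14.6 at 4 h and 13.0 and 13.5 at 20 h (log2 change 0.63 at 4 h, adjusted p = 0.0343, and 0.69 at 20 h, adjusted p = 0.00538). In chrRNP it had 5.63 and 5.76 at 0 h and 16.7 and 19.3 at 4 h (1.50, adjusted p = 3.63e-05), and in RNPmesh RNA 7.81 and 6.30 at 0 h, 24.4 and 29.1 at 4 h and 59.4 and 49.0 at 12 h (2.78 at 12 h, adjusted p = 0.000101). It passed the test in 11 of 13 comparisons of IAA with 0 h, all but cyto (adjusted p = 0.0629) and nascent RNA (adjusted p = 0.134). Comparisons of a table share their 0 h libraries, so the 13 are not independent. Rnpc3 was named for its called rises, and how many of all genes passed as often was not counted. Of the 7 minor spliceosome genes listed, 5 fell in ESC total RNA at 20 h, where 67.8% of all genes fell.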

How the data were processed

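Per the submitters' processing notes, the authors' FPKM tables rest on mm10, with TopHat2 2.0.11 and Cufflinks 2.0.2 among the tools named. For the deposited RPKM table of nascent RNA those notes name dm6 besides mm10, and bedtools, TopHat2 and Trim Galore. Peaks were deposited as positions only. Not given in the sources used here were spike-in scaling, annotation version, strand setting and counts per library. Genes were followed by identifier, and positions count from 1. The members and gene lists were chosen with earlier results of these data known.

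Of 54 libraries in 6 tables, log2(value + 1) was fitted with limma 3.58.1 (trend, moderated, two-sided) in R 4.3.3, for genes that reached 1 in 2 or more libraries, all groups of a table together. P-values were adjusted by Benjamini-Hochberg over all genes of each of 19 contrasts, with a threshold of 0.05. The fit was tested on simulated data with 200 changed genes. Gradients had 1 library per fraction and time and no test. The nascent values were turned into whole reads by their smallest step, for an added analysis with voom. Other steps used pandas 2.3.3, numpy 2.4.6 and matplotlib 3.10.9. Alternatives were a pseudocount of 0.1, no filter, rescaling by the median ratio of tested genes, a replicate block and each library left out, and for gradients equal protein-coding sums, fewer fractions and a higher minimum.

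Genes were named by a rule: the 3 highest members, the highest of each family and members called in ESC, iMEF or fraction contrasts. For over 8 calls, the 4 largest differences in each direction without overlap of groups were taken. List genes came from the largest called changes in each direction of a contrast. Others were chosen after their values were seen. Of the members, 131 matched RefSeq by symbol. RAD1 was fitted with RAD0 but not contrasted. Histone marks other than H3K27ac, ATAC and Hi-C were not used here.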

Additional observations from a re-analysis of the deposited data

Results flagged for a closer look

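A few snRNA genes moved in opposite directions in different samples under the same treatment, with every library of one kind of sample on one side of its controls and every library of the other kind on the opposite side. These genes were picked because their calls went opposite ways, and the share of all genes with such calls was not computed. Whether this is particular to snRNAs was not tested, and none of the differences between samples was tested. Gm22220 changed by -3.17 (log2) in np and by 3.30 in the whole lysate at 4 h. It overlaps 1700104L18Rik, and its values of 0 in both controls or both treated libraries may be failed estimates.

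Gm25099 changed by -1.69 in ESC total RNA at 20 h, and by 2.64 at 4 h and 4.26 at 20 h in polyadenylated RNA of RAD0 cells, where both 0 h libraries were listed at 0. The call at 4 h was lost without any of the 4 libraries (adjusted p of up to 0.121). Rnu12 changed by 1.31 in ESC total RNA at 20 h and by -1.41 in polyadenylated RNA of RAD0 cells at 20 h. The tables were normalized separately and differ in the RNA selected.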

How the results depend on the processing

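Over settings other than left-out libraries, 222 of 294 values of single called members kept direction and call, 66 lost the call and 6 turned, each with rescaled libraries: at 20 h in ESC total RNA Gm24265 to 0.047, Gm26316 to 0.35 and Gm22973 to 0.52, and in chrRNP against np Gm24305 to 0.30, Gm23143 to 0.29 and Gm25813 to 0.046. With libraries left out, 191 of 288 kept the call and 97 lost it. Gm25184 was counted there only where both 0 h libraries stayed in. Causes were not tested.

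Without the filter on low values, more genes were tested, and members called numbered 1 (ESC 4 h), 4 (ESC 20 h), 0 (ESC 20 against 4 h, iMEF 4 h and 20 h, nascent), 6 (chrRNP against cyto), 12 (np against cyto), 4 (chrRNP against np), 1 (RAD0 4 h) and 3 (RAD0 20 h). Rescaling gave 1 (ESC 4 h), 9 (ESC 20 h, 8 higher and 1 lower), 17 (chrRNP against cyto) and 4 (chrRNP against np). A pseudocount of 0.1 gave 1 in nascent RNA, 1 in RNPmesh at 12 h and 116 for F6 to F9 against F2 to F5. With the replicate block, 0 were called in nascent RNA and 1 in RNPmesh at 12 h, and other counts moved less. Deviations of same-numbered libraries correlated between -0.145 and 0.145 over the tables. Low correlations cannot exclude that such libraries shared a culture or preparation, and the main fit used no pairing.

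For the gradient, equal protein-coding sums gave 80 members for the sum at 12 h, 81 for F6 to F9 against F2 to F5 and 28 for the shift. The median ratio gave 73 for F6 to F9 and a minimum of 80 FPKM 7 shifts. Leaving out F2 gave 54 for F6 to F9, and leaving out F9 gave 11 shifts.

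Leaving out each library in turn gave 0 to 2 members (ESC 4 h), 4 to 8 (ESC 20 h), 3 to 6 (ESC 20 against 4 h), 1 to 2 (iMEF 4 h), 1 to 5 (iMEF 20 h), 1 to 4 (chrRNP 4 h), 1 to 2 (np 4 h), 0 to 3 (cyto 4 h) and 1 to 3 (wcl 4 h). It gave 9 to 15 (chrRNP against cyto), 14 to 18 (np against cyto), 6 to 13 (chrRNP against np), 0 to 2 and 0 to 0 (IAA change of chrRNP and of np against cyto), 0 to 0 (nascent), 0 to 1 (RNPmesh at each time), 1 to 3 (RAD0 4 h) and 2 to 7 (RAD0 20 h). Read depth of the FPKM tables is unknown and limits the low members most.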
